A study of Mus musculus with 2 samples.

Results

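The genes described here make, take up, break down and sense prostaglandin E2. They are Ptgs1, Ptgs2, Ptges and Ptges3 (synthesis), Hpgd and Slco2a1 (breakdown and uptake) and Ptger1, Ptger2, Ptger3 and Ptger4 (receptors). They were taken by symbol from the 27998 genes of the count matrices, and all 10 were present. The set was chosen by measured values, the levels of several of its genes by cell class and library in these same data, so their levels and ratios are given as descriptions and no test was run on them.

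Cells were sorted from the femoral metaphysis of Gli1-CreERT2; Ai9 mice aged 1 month, after the epiphysis had been taken off. In these mice tamoxifen lets Cre act in Gli1-expressing cells, and the Ai9 allele then gives tdTomato in those cells and their descendants. Mice of both groups carried the same alleles on a mixed background and had tamoxifen for 3 days, followed by 3 daily intraperitoneal injections of vehicle or of teriparatide (the active N-terminal fragment of parathyroid hormone) at 400 ng per g. Each group had 5 mice, 3 male and 2 female, and 1 single-cell library. The animals of a group are treated as 1 pool, although no source states pooling. The sort kept cells with tdTomato and without CD31, CD45 and Ter119. The libraries nevertheless held many cells with blood markers, and these are used below as further cell classes (29 and 239 neutrophil-like, 12 and 105 monocyte-like and 31 and 121 erythroid-like cells, vehicle first). With 1 library per group there is no replicate, so the intervals given (95%) cover counting error only, and treatment, library and mice cannot be told apart.

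The vehicle library had 1286 barcodes with 10567335 unique molecular identifiers (UMIs, each standing for 1 captured mRNA molecule), and the teriparatide library had 2142 barcodes with 26270041 UMIs. The limits on genes and mitochondrial UMIs kept 549 and 1217 cells, and the libraries shared 2 barcodes. Classes were set from marker genes. Col2a1, Acan and Sox9 marked chondrocyte-like osteoprogenitors (COP-like, 68 vehicle and 277 teriparatide cells), and Cxcl12, Lepr and Adipoq marked marrow adipogenic lineage precursors (MALP-like, 169 and 96 cells). Postn, Aspn and Tnn marked preosteoblasts (preOB-like, 23 and 29 cells), and Col1a1 with Bglap2 marked osteoblasts (OB-like, 111 and 146 cells). Of mesenchymal cells whose sex could be called, 51.8% of those given vehicle and 90.3% of those given teriparatide were male. Several ratios of the members between libraries are therefore also given within 1 sex, mainly where that value turned or moved far. The level of a gene is its UMIs per 1000000 UMIs of the class (CPM), and values after vehicle come first where a pair is given. Col2a1 had 40154 and 41726 CPM in COP-like cells against 298 and 114 CPM in all other cells with a class.

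Prostaglandin H synthases, also called cyclooxygenases, turn arachidonic acid into the common precursor of the prostanoids, and terminal synthases make each prostanoid from it. Prostaglandin E2 acts on G-protein-coupled receptors, is taken up by a transporter and is oxidized by 15-hydroxyprostaglandin dehydrogenase. In bone, prostaglandin E2 is known for effects on both formation and resorption, and the inducible cyclooxygenase is a known early target of parathyroid hormone in osteoblasts.

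RefSeq promoters on GRCm38.p6 were found for 9 of the 10 genes. The 250 bases before the start of transcription are shown for 3 genes on which the results turn. These genes are the cyclooxygenases Ptgs2 and Ptgs1, highest in different sub-groups, and Hpgd, which was found with Ptgs2 in some Col10a1-high cells. Capitals mark the one match of the motifs searched. They stand on the plus strand at chr1:150099781-150100030, chr8:56294302-56294551 and chr2:36230176-36230425.
Ptgs2: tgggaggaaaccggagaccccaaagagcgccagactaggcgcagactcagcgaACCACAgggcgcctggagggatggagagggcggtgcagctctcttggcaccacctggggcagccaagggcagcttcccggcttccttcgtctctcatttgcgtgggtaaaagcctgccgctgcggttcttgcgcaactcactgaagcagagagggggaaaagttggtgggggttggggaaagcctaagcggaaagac
Hpgd: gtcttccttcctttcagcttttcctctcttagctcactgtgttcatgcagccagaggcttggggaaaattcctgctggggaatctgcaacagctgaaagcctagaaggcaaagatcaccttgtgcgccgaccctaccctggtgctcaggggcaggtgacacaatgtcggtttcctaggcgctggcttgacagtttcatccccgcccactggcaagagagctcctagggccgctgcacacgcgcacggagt
Ptgs1: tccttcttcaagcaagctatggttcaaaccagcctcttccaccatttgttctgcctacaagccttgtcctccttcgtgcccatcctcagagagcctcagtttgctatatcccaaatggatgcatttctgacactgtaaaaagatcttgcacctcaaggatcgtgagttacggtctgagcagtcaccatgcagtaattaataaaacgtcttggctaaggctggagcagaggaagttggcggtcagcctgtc
On both strands these stretches were searched for TGACG, the core of a cyclic AMP response element, its full form TGACGTCA, which holds the core, the Runx core TGTGGT, the E-box CACGTG and the TATA box TATAAA. Ptgs2 had the Runx core, as ACCACA on the strand shown, 197 bases before its start. No other match was found in the 3 stretches. Bases past the RefSeq start of each gene were not searched, so a site there would be missed. For Hpgd the stretch ends at 56294551, short of the GENCODE start of 56294585 given below, so the bases between were not searched. Of 32851 promoters of this length, 14.0% held the Runx core, 17.8% the TGACG core, 1.55% the full element, 6.02% the E-box and 12.4% the TATA box. A match is a run of letters and not a shown binding site.

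The cyclooxygenases were highest in different classes and sub-groups of cells. Ptgs1 (ENSMUSG00000047250, chromosome 2 from 36230426 to 36252272 on GRCm38), the constitutive enzyme, was found in COP-like cells at 14.8 CPM (9.83–21.4, 28 UMIs) after vehicle and 28.9 CPM (25.4–32.7, 244 UMIs) after teriparatide. In the other 3 mesenchymal classes its level was between 0.76 and 7.67 CPM in either library, on 1 to 18 UMIs. Against the other 3 mesenchymal classes together, COP-like cells had a log2 ratio of 2.37 (1.37–3.44) after vehicle and 2.59 (1.97–3.27) after teriparatide. Within the OB-like class, however, the few cells with Mepe, a gene of late osteoblasts and osteocytes, had 86.8 CPM (28.2–203, 5 UMIs in 10 cells) and 46.0 CPM (22.1–84.6, 10 UMIs in 27 cells) of Ptgs1.

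Within COP-like cells, Ptgs1 was spread over many cells with few UMIs each. It was detected in 17 of 68 vehicle and 114 of 277 teriparatide cells, with at most 9 UMIs in a cell. Cells with Chad and Stc2 had 24.8 CPM (15.4–37.9) and 36.5 CPM (31.2–42.4), and cycling cells had 15.5 CPM (3.20–45.3) and 38.2 CPM (24.2–57.3). Cells with Sfrp5, Cpm and Hhip had 2.74 CPM (0.332–9.91) after vehicle and 17.4 CPM (12.7–23.2) after teriparatide. The COP-like cells highest in Col10a1, the collagen of hypertrophic chondrocytes, had 0 and 5 Ptgs1 UMIs.

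Ptgs2 (ENSMUSG00000032487, chromosome 1 from 150100031 to 150108227), the inducible enzyme, had 4.75 CPM (2.17–9.03, 9 UMIs) and 25.0 CPM (21.7–28.6, 211 UMIs) in COP-like cells. It had 12.2 CPM (8.10–17.6, 28 UMIs) and 20.4 CPM (15.5–26.2, 60 UMIs) in OB-like cells, and 4 UMIs in the preOB-like cells of each library. No UMI was found in MALP-like cells, with 0 of 169 vehicle cells, which allows a share of up to 1.78%, and 0 of 96 teriparatide cells, which allows up to 3.12%. These limits are on cells with a UMI at this depth, not on cells that express the gene. Erythroid-like cells, used as cells that should lack Ptgs2 though not every member, had 0 of 31 and 0 of 121 cells with it. Their median was 12866 and 11278 UMIs per cell, close to the 11055 and 13579 of MALP-like cells.

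The Ptgs2 of COP-like and OB-like cells lay in few cells. Col10a1-high COP-like cells numbered 4 after vehicle and 15 after teriparatide and held 3 of the 9 and 166 of the 211 Ptgs2 UMIs. Their level was 38.6 CPM (7.95–113) and 285 CPM (243–332). Among the 15 teriparatide cells, 7 had Ptgs2, with 2 to 46 UMIs, and the other 8 had none. In the OB-like class the Mepe+ cells had 86.8 CPM (28.2–203, 10 cells) and 221 CPM (163–293, 27 cells), and 1 of these 27 cells held 37 of their 48 UMIs. OB-like cells low in Mepe had 10.3 CPM (6.51–15.4) and 4.40 CPM (2.27–7.68). Within female Mepe+ cells the log2 ratio of teriparatide over vehicle was -0.94 (-3.02 to 1.33), on 4 and 6 UMIs.

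Blood-lineage cells held most of the Ptgs2 of the libraries, 60.6% of its UMIs after vehicle and 71.6% after teriparatide. Monocyte-like cells had 534 CPM (421–669, 12 cells) and 339 CPM (311–369, 105 cells), the top level of any class. Mature neutrophil-like cells had 352 CPM (237–503) and 263 CPM (229–301), against 37.2 CPM (16.1–73.3) and 21.2 CPM (16.2–27.3) in immature ones, the former marked by Retnlg and Mmp8 and the latter by Ngp, Camp and Ltf. Ptgs1 ran the other way, with 107 CPM (67.8–160) and 52.2 CPM (44.2–61.3) in immature and 11.7 CPM (0.297–65.4) and 15.0 CPM (7.73–26.1) in mature neutrophil-like cells. Granulocyte-monocyte progenitor-like cells of the teriparatide library (12 cells) had 90.8 CPM (65.5–123) of Ptgs1 and no Ptgs2.

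The share of Ptgs2 among the UMIs of both cyclooxygenases set the classes apart. It was 98.7% and 96.5% in monocyte-like cells and 97.1% (166 of 171 UMIs) in the Col10a1-high COP-like cells of the teriparatide library. In Chad and Stc2 cells it was 4.55% (0.115–22.8) and 17.9% (12.9–23.8), and in cycling COP-like cells of the teriparatide library it was 0 of 23 UMIs. A cell could hold both enzymes. Of the 17 COP-like cells with Ptgs2, 5 also had Ptgs1, all of them outside the Col10a1-high cells, and of the 25 OB-like cells with Ptgs2, 6 did.

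**Figure D1:**
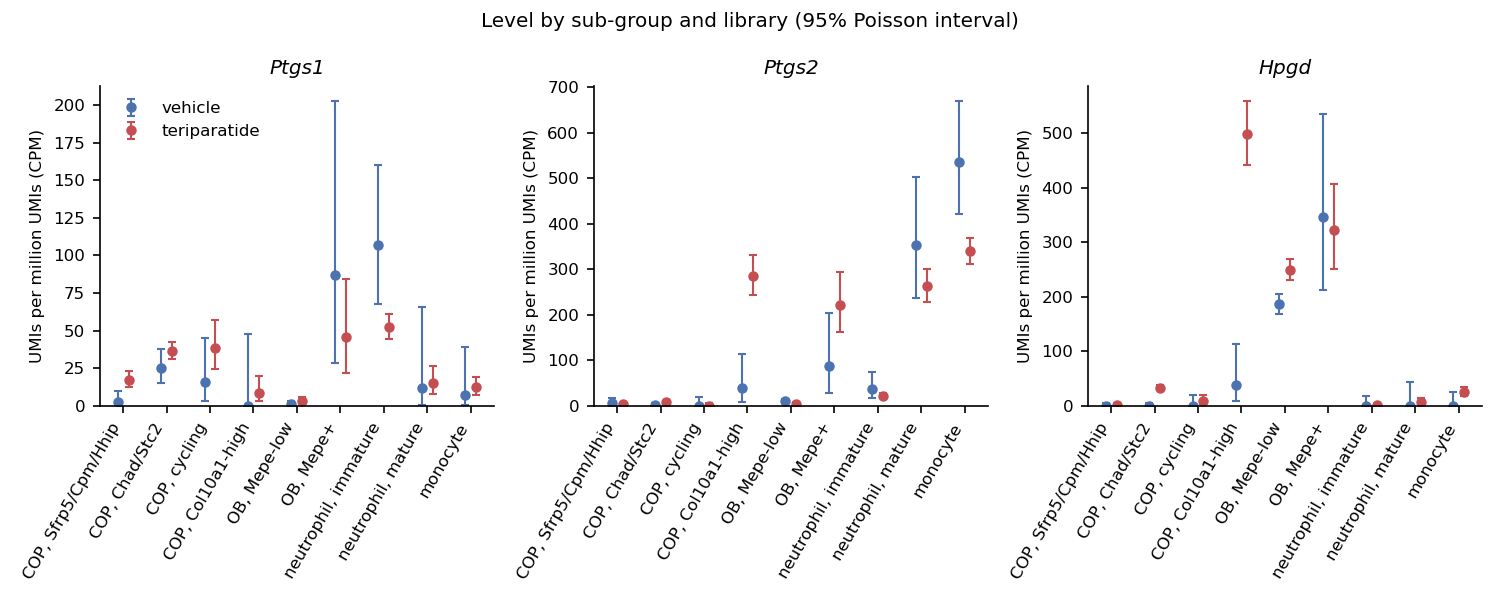
Level in CPM of Ptgs1, Ptgs2 and Hpgd by sub-group of COP-like, OB-like and neutrophil-like cells and in monocyte-like cells, with 95% Poisson intervals and 1 point per library. Ptgs2 and Hpgd are high in the teriparatide Col10a1-high COP-like cells (285 and 498 CPM), where Ptgs1 has 5 UMIs.

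Ptges (ENSMUSG00000050737, chromosome 2 from 30889471 to 30929863), the inducible terminal synthase of prostaglandin E2, was sparse everywhere, with 18 vehicle and 32 teriparatide UMIs over all kept cells. Its level did not pass 8.31 CPM in any mesenchymal class. Of its 12 UMIs in teriparatide COP-like cells, 9 lay in 3 Col10a1-high cells. Immature neutrophil-like cells had 1 and 12 UMIs, and mature ones had none.

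Ptges3 (ENSMUSG00000071072, chromosome 10 from 128058954 to 128077272) encodes p23, a co-chaperone of Hsp90 that is also described as a cytosolic prostaglandin E synthase. It was the member with the most UMIs, 1450 and 2681, and was found in every class examined. COP-like cells had 226 CPM (205–249) and 146 CPM (138–154), and MALP-like cells had 228 CPM (207–251) and 134 CPM (115–155). PreOB-like cells had 241 CPM (193–297) and 134 CPM (105–170), and OB-like cells, the lowest of the 4, had 98.0 CPM (85.6–112) and 68.9 CPM (59.7–79.1). The level was lower in the teriparatide library in each of the 4 classes, with counting intervals that did not overlap. The median log2 ratio of all genes was also negative in each, from -0.20 in COP-like to -0.06 in MALP-like cells. Female MALP-like cells gave a Ptges3 log2 ratio of -0.96 (-1.99 to -0.09), on 181 and 11 UMIs. Female preOB-like cells gave -0.80 (-2.21 to 0.37), on 39 and 7 UMIs. In female COP-like cells the Ptges3 ratio was -0.19 (-0.68 to 0.33) and in female OB-like cells 0.18 (-0.48 to 0.79). The genome holds a processed pseudogene, Ptges3-ps, that is not among the genes counted, and reads of near-identical sequence could be lost or assigned between them.

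**Figure D2:**
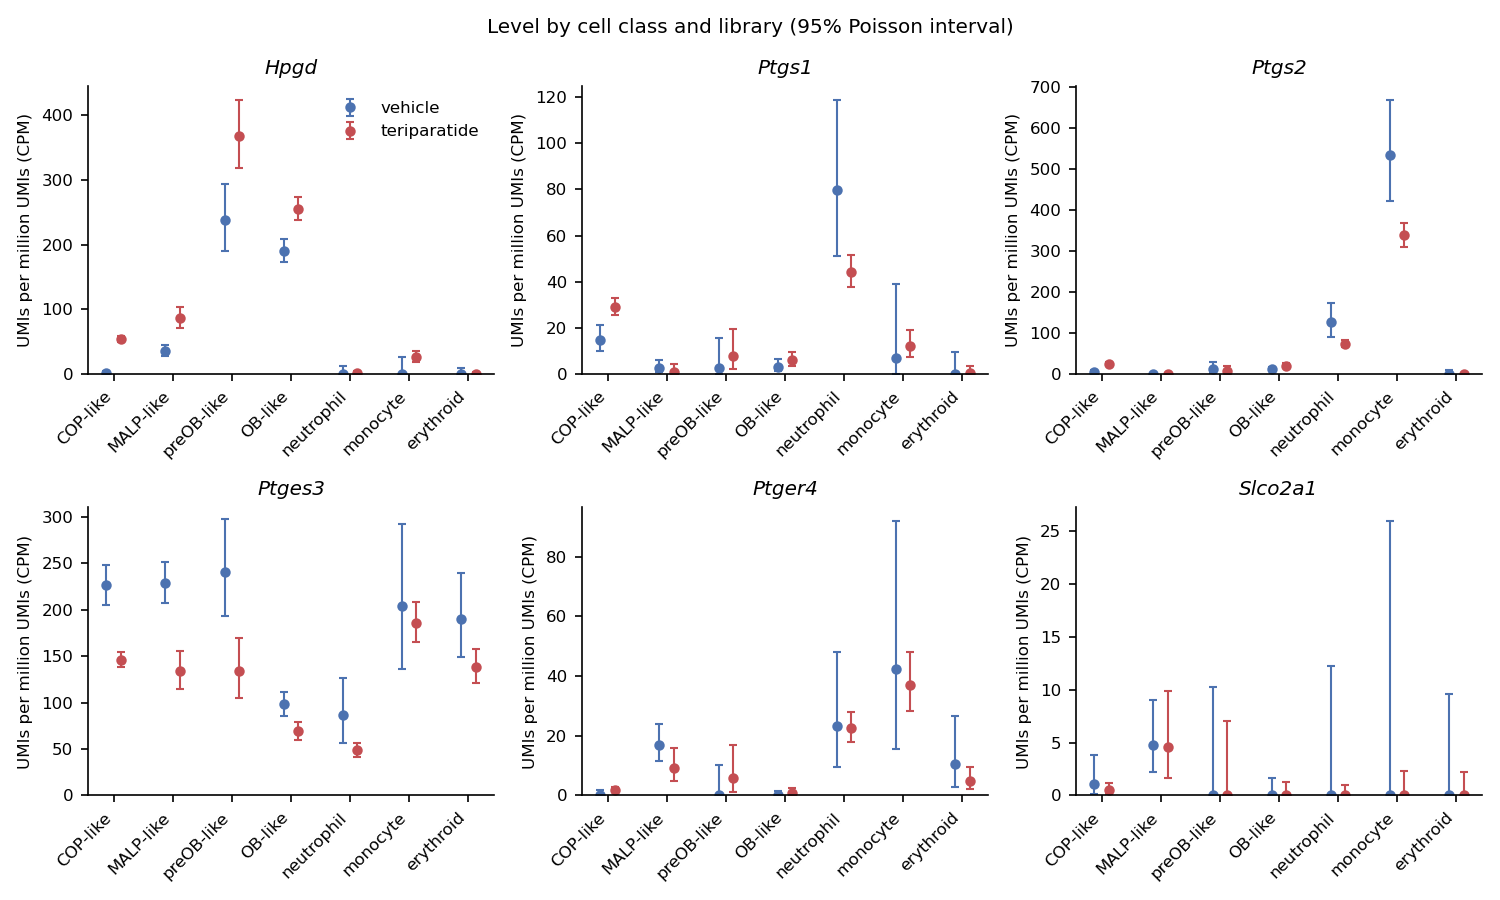
Level in CPM of 6 of the genes in 7 cell classes, with 95% Poisson intervals and 1 point per library. Hpgd is highest in preOB-like and OB-like cells, Ptgs2 in monocyte-like cells, and Ptges3 is lower in the teriparatide library in all 4 mesenchymal classes.

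Hpgd (ENSMUSG00000031613, chromosome 8 from 56294585 to 56321043) encodes 15-hydroxyprostaglandin dehydrogenase, the enzyme that inactivates prostaglandin E2. Its level was 238 CPM (191–294, 86 UMIs) and 368 CPM (318–424, 192 UMIs) in preOB-like cells and 190 CPM (173–209, 437 UMIs) and 255 CPM (237–274, 752 UMIs) in OB-like cells. MALP-like cells had 35.5 CPM (27.5–45.1, 67 UMIs) and 85.9 CPM (70.8–103, 113 UMIs), and COP-like cells had 1.58 CPM (0.327–4.63, 3 UMIs) and 53.6 CPM (48.8–58.8, 453 UMIs). The order of the classes from preOB-like to COP-like was the same in both libraries. In the vehicle library the preOB-like level was below the OB-like level with up to 20% mitochondrial UMIs (150.1 against 185 CPM), with Seurat clusters (149 against 189 CPM) and in female cells (102 against 161 CPM). Neighbours in that order had overlapping intervals only for preOB-like and OB-like cells of the vehicle library.

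Most Hpgd UMIs, 93.1% and 91.7%, lay in the mesenchymal classes. Erythroid-like cells had it in 0 of 31 cells, which allows up to 9.68%, and 0 of 121 cells, which allows up to 2.48%, again of cells with a UMI, and B cell-like cells had no UMI. Monocyte-like cells had it in 0 of 12 vehicle and 15 of 105 teriparatide cells (25.5 CPM, 18.2–34.8). In OB-like cells it was detected in 65.8% and 71.9% of cells, and after thinning each cell to 3400 UMIs in 35.2% and 43.5%.

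COP-like cells had Hpgd in 3 of 68 vehicle and 51 of 277 teriparatide cells. All 3 vehicle UMIs and 290 of the 453 teriparatide UMIs lay in Col10a1-high cells, where the level was 38.6 CPM (7.95–113) and 498 CPM (442–559). Each of the 15 teriparatide Col10a1-high cells had at least 4 Hpgd UMIs, with a median of 13 and a maximum of 52, and none of the 4 vehicle cells had more than 1. The vehicle cells had a median of 18244 UMIs per cell and the teriparatide cells 38399, a gap in depth whose part in the difference was not tested. The 7 teriparatide cells with Ptgs2 all had Hpgd, and 8 more had Hpgd without Ptgs2.

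**Figure D3:**
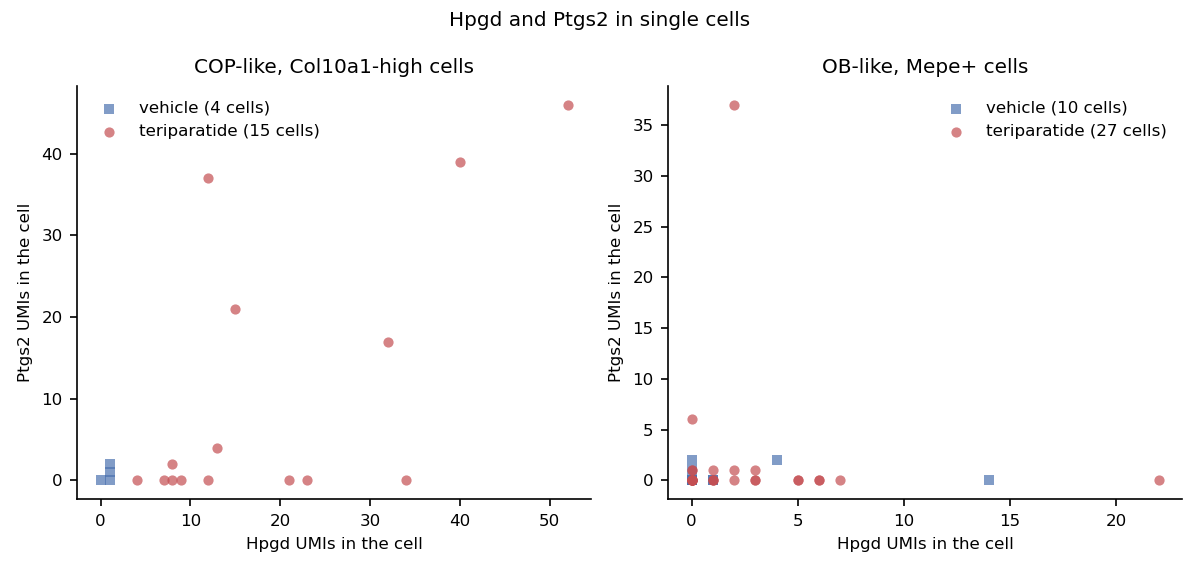
Hpgd UMIs (horizontal) and Ptgs2 UMIs (vertical) in each Col10a1-high COP-like cell (left) and each Mepe+ OB-like cell (right), squares for vehicle and circles for teriparatide. Teriparatide Col10a1-high cells reach 52 Hpgd and 46 Ptgs2 UMIs, vehicle cells at most 1 and 2, and in Mepe+ cells a single cell holds 37 Ptgs2 UMIs.

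Outside the Col10a1-high cells, COP-like cells had 0 Hpgd UMIs in 64 vehicle cells and 163 in 262 teriparatide cells, a level at least 12.5-fold higher than the floor of 3 UMIs over the vehicle cells. Chad and Stc2 cells held 153 of them, 45 in 1 cell. Cells with Ihh, the signal of prehypertrophic chondrocytes, were 1 vehicle and 30 teriparatide cells, and the 30 cells had 109 CPM (89.7–130) against 6.78 CPM (4.96–9.04) in the 232 teriparatide cells without Ihh. Cells without Ihh had 0 Hpgd UMIs in 63 vehicle cells and 46 UMIs in 23 of the 232 teriparatide cells.

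Slco2a1 (ENSMUSG00000032548, chromosome 9 from 102988712 to 103096002), the prostaglandin transporter, had 12 UMIs in each library. Of these, 9 and 6 lay in MALP-like cells, at 4.77 CPM (2.18–9.05) and 4.56 CPM (1.67–9.92). No UMI was found in preOB-like, OB-like, erythroid-like, neutrophil-like or monocyte-like cells. MALP-like cells exceeded the other 3 mesenchymal classes together by a log2 ratio of 3.44 (1.17–6.69) and 3.76 (1.69–6.03).

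Of the receptors only Ptger4 (ENSMUSG00000039942, chromosome 15 from 5206661 to 5244187), which raises cyclic AMP, had more than 60 UMIs in all. MALP-like cells had 17.0 CPM (11.6–23.9, 32 UMIs) and 9.12 CPM (4.71–15.9, 12 UMIs). In the vehicle library the 32 UMIs in MALP-like cells were all those of the mesenchymal classes, and in the teriparatide library COP-like cells had 15, preOB-like cells 3 and OB-like cells 2. Monocyte-like cells had 42.2 CPM (15.5–91.8) and 37.0 CPM (28.1–47.9), and neutrophil-like cells had 23.3 CPM (9.37–48.0) and 22.6 CPM (18.0–28.0). Erythroid-like cells had 10.4 CPM (2.84–26.7) and 4.90 CPM (2.11–9.65), so the MALP-like level was not above that of erythroid-like cells beyond the intervals. Ptger4 overlaps Ttc33 on the opposite strand.

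Ptger2, the other receptor that raises cyclic AMP, had 11 and 40 UMIs, of which blood-lineage cells held 4 and 31. Ptger1, which acts through calcium, had 0 and 9 UMIs, 6 of them in COP-like cells. Ptger3, which lowers cyclic AMP, had 6 and 22 UMIs. Its 6 mesenchymal UMIs lay in 6 COP-like cells with Sfrp5, Cpm and Hhip of the teriparatide library, and erythroid-like cells had 2 and 9. In every class these 3 receptors had too few UMIs to be called between the libraries at the minimum given below. Between classes, teriparatide MALP-like cells exceeded the other 3 mesenchymal classes together in Ptger2 by a log2 ratio of 3.18 (0.28–6.08). That value rested on 3 and 3 UMIs. The vehicle value was 2.59 (-0.02 to 5.98), on 5 and 2 UMIs. PreOB-like cells gave 3.61 (0.14–6.41) after teriparatide, on 2 and 4 UMIs, and had no Ptger2 UMI after vehicle.

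Between the libraries, a gene was called when its class held at least 50 of its UMIs and its level differed by at least 1.5-fold. In COP-like cells 4 of the 10 genes reached 50 UMIs and all 4 were called, 3 higher and 1 lower in the teriparatide library, where 25.1% of all genes tested were called (8.20% higher and 16.9% lower). In MALP-like cells 2 of 2 were called, 1 in each direction, where 17.8% of all genes were called (7.81% higher, 9.97% lower). In preOB-like cells 2 of 2 were called, 1 in each direction, against 26.0% (10.3% higher, 15.7% lower), and in OB-like cells 1 of 3, higher, against 19.7% (9.10% higher, 10.6% lower). These genes were chosen with such differences known, so nothing is read from the counts. The median log2 ratio of all genes was -0.20 in COP-like, -0.06 in MALP-like, -0.13 in preOB-like and -0.08 in OB-like cells.

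Hpgd was higher in the teriparatide library in COP-like cells, with a log2 ratio of 5.08 (3.52–7.36). In MALP-like cells the log2 ratio was 1.27 (0.83–1.73), in preOB-like cells 0.63 (0.25–1.01) and in OB-like cells 0.42 (0.25–0.60), which is under 1.5-fold. Within male cells the ratio was 5.47 in COP-like and 1.83 in MALP-like cells but 0.03 (-0.57 to 0.67) in preOB-like and 0.09 (-0.16 to 0.35) in OB-like cells. Female OB-like cells gave 0.87 (0.46–1.26), on 231 and 68 UMIs from 56 and 9 cells. Female COP-like cells had 0 and 4 Hpgd UMIs, 4.69 CPM after teriparatide against 56.4 CPM in male cells, and no Ptgs2 UMI in either library, and no Col10a1-high cell was called female. Female MALP-like cells gave -2.41 (-7.75 to 0.14) on 45 and 1 UMIs, from 72 vehicle and 9 teriparatide cells. The preOB-like value was 0.10 as a mean of per-cell CPM and -0.28 with thinned cells, and 1 teriparatide cell held 58 of the 192 UMIs. Female preOB-like cells gave 3.08 (2.31–3.90), from 12 and 3 cells.

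The log2 ratio of Ptgs2 was 2.39 (1.44–3.54) in COP-like cells and 0.74 (0.07–1.44) in OB-like cells. Without the Col10a1-high cells the COP-like value was 0.79 (-0.44 to 2.31), with thinned cells it was 0.99, and without the cell with the most Ptgs2 UMIs in each library it was 3.21. The same omission brought the OB-like value to 0.08, male OB-like cells gave -0.26 (-1.07 to 0.63), and classes from Seurat clusters gave -0.25. In Col10a1-high cells 25.3% of the genes tested were called higher, and Ptgs2 had a log2 ratio of 2.89 (1.31–5.18) and Hpgd 3.69 (2.13–5.98) there. All 11 tested genes of a list of 12 early response and heat shock genes were also higher in these cells, among them Fos at 2.59 (1.96–3.31) and Atf3 at 4.40 (2.54–7.46). Their part in the Ptgs2 difference was not tested.

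Ptgs1 in COP-like cells had a log2 ratio of 0.97 (0.40–1.58), which was 1.53 (0.80–2.37) in male cells and -0.44 (-1.69 to 0.95) in female cells, on 8 and 20 UMIs. Over all cells of the class, sex called or not, both cyclooxygenases were lower after teriparatide in neutrophil-like cells, and Ptgs2 was lower in monocyte-like cells. Neutrophil-like cells had log2 ratios of -0.86 (-1.48 to -0.17) for Ptgs1 and -0.77 (-1.27 to -0.24) for Ptgs2, and 3 of 4 tested members were called lower, where 35.7% of all genes were called (8.52% higher, 27.2% lower) and the median was -0.29. Within each sex, however, neutrophil-like Ptgs2 was higher after teriparatide, with 39.3 and 53.9 CPM in male cells (0.46, -0.94 to 2.36, on 4 and 107 UMIs) and 0 and 82.2 CPM in female cells (0 and 36 UMIs). Only 4 of the 38 vehicle Ptgs2 UMIs lay in cells with a sex call. Ptgs1 turned in female cells (1.23, -1.45 to 6.62, on 1 and 16 UMIs). Monocyte-like cells had -0.66 (-1.01 to -0.29) for Ptgs2, the 1 of 3 tested members that was called, where 32.9% of all genes were called (17.5% higher, 15.4% lower). Male monocyte-like cells gave -0.49 (-1.11 to 0.20) for Ptgs2, and female ones gave -1.65 (-2.21 to -1.08), on 54 and 58 UMIs. The female cells numbered 7 and 16. The vehicle library had 29 neutrophil-like and 12 monocyte-like cells. Its 38 neutrophil-like Ptgs2 UMIs lay in 8 cells and its 76 monocyte-like ones in 5 cells.

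Ptges3 had log2 ratios of -0.63 (-0.79 to -0.47) in COP-like, -0.77 (-1.03 to -0.52) in MALP-like, -0.84 (-1.32 to -0.37) in preOB-like and -0.51 (-0.79 to -0.23) in OB-like cells, the last under 1.5-fold. Female cells gave -0.19 (-0.68 to 0.33) in COP-like and 0.18 (-0.48 to 0.79) in OB-like cells. With the median ratio of all genes as the scale, the COP-like value was -0.43 and was not called. Of 6 genes of the Hsp90 chaperone system, chosen after the Ptges3 values were seen, 5 of 6 tested were called lower in MALP-like, 3 of 4 in preOB-like, 3 of 6 in OB-like and 1 of 6 in COP-like cells, and none were higher. Hsp90aa1 itself had -1.18 (-1.36 to -1.01) in MALP-like and -0.41 (-0.47 to -0.34) in COP-like cells, where female cells gave -1.10 (-1.28 to -0.93). In female COP-like cells Hsp90ab1 (-0.60) and Hsph1 (-1.48) were also lower. There Cdc37 (0.84, 0.09–1.67), Stip1 (0.12) and Ahsa1 (0.17), the gene called lower over all COP-like cells, ran the other way. Of all genes tested, 9.97% were called lower in MALP-like, 15.7% in preOB-like, 10.6% in OB-like and 16.9% in COP-like cells. Of the early response and heat shock list, 9 of 12 were called lower in MALP-like, 7 of 10 in preOB-like and 9 of 12 in OB-like cells. In COP-like cells 0 of 12 were called, where 25.1% of all genes were called in either direction. Within female COP-like cells the log2 ratios of these 12 genes ran from -2.27 (Atf3) to -0.28 (Nr4a1), with Fos at -1.38 (-1.47 to -1.29). Only 9 vehicle and 25 teriparatide COP-like cells were called female, and the intervals do not cover spread between cells. Their part in the Ptges3 difference was not tested.

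**Figure D4:**
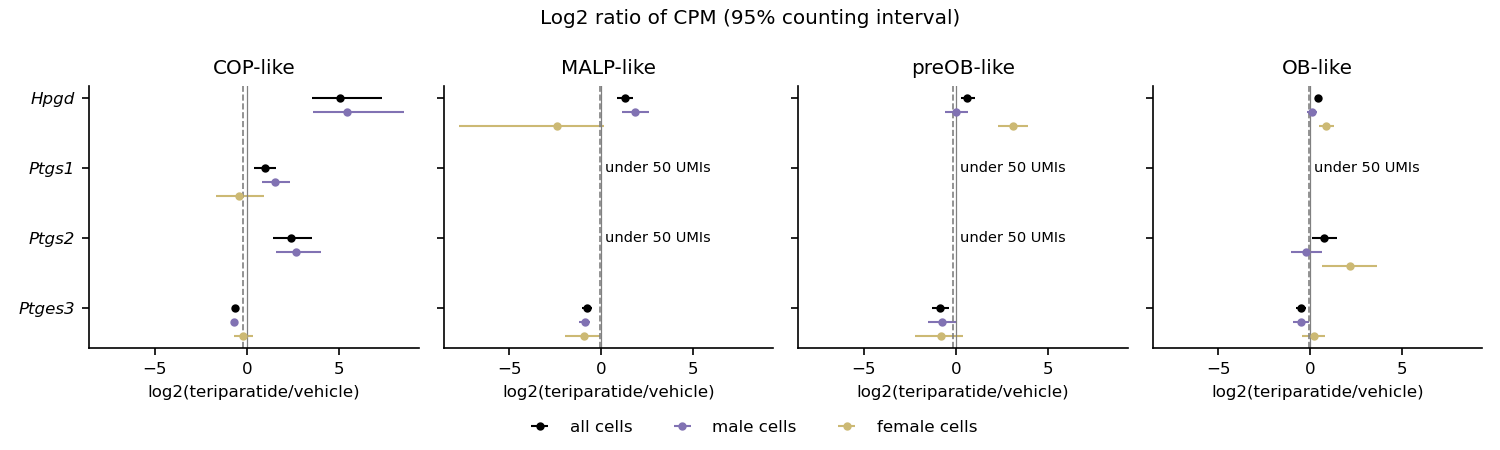
Log2 ratio of CPM, teriparatide over vehicle, of 4 of the genes in each mesenchymal class, with 95% counting intervals, for all cells (black), male cells (purple) and female cells (yellow). The solid line marks 0 and the dashed line the median of all genes tested. Hpgd lies right of 0 in all 4 classes for all cells but not for female MALP-like cells (-2.41), and Ptges3 lies left of 0 in all 4 for all cells but not for female OB-like cells (0.18).

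The rest of the prostanoid pathway was read from a list of 23 genes. In COP-like cells 14 were tested, with 1 higher and 3 lower, or 1 higher and 1 lower without the Col10a1-high cells. In MALP-like cells 11 were tested, with 0 higher and 1 lower, in preOB-like cells 5, with 0 and 2, and in OB-like cells 10, with 2 and 1. Of all genes tested, 25.1% were called in COP-like, 17.8% in MALP-like, 26.0% in preOB-like and 19.7% in OB-like cells, so nothing is read from these counts. In COP-like cells the lower genes were Ptgds, Plaa, a phospholipase A2 activator (-0.61, -1.08 to -0.12), and Ptgr2, a reductase that acts after Hpgd (-0.74, -1.29 to -0.17). Akr1b3, an aldose reductase also described as a prostaglandin F synthase, was lower in MALP-like (-0.94, -1.46 to -0.45) and preOB-like cells (-0.75, -1.60 to 0.09). Mgll, a monoacylglycerol lipase, was lower in preOB-like (-1.07, -1.80 to -0.35) and higher in OB-like cells (1.08, 0.59–1.59). Cbr1, a carbonyl reductase, was lower in OB-like cells (-0.60, -1.12 to -0.09), and Pla2g5 was higher there (0.85, 0.46–1.25). The median log2 ratio of the tested genes lay between -0.30 and 0.07 over these classes.

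Ptgis, the prostacyclin synthase, was found with Hpgd in osteoblasts. Its level was 538 CPM (508–569) and 494 CPM (469–520) in OB-like cells and 25.9 CPM (19.2–34.2) and 51.7 CPM (47.0–56.8) in COP-like cells, a log2 ratio of 1.00 (0.57–1.46). In Col10a1-high cells it had 488 and 498 CPM, a log2 ratio of 0.03 (-0.46 to 0.56). Ptgis was not called there, while Hpgd and Ptgs2 were called higher. Hpgd also differed outside these cells, where the 26 and 148 Chad and Stc2 cells held 7 and 134 Ptgis UMIs. Of the 15 teriparatide Col10a1-high cells, 15 had both Hpgd and Ptgis. Its receptor gene Ptgir had 1 UMI in all mesenchymal cells and 2 and 58 UMIs in neutrophil-like cells.

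A phospholipase gene and genes of other prostanoid branches also differed in level by class. Pla2g5, a secreted phospholipase, had 222 CPM (202–245) and 182 CPM (174–192) in COP-like cells, 34.0 CPM (26.9–42.4) and 61.1 CPM (52.5–70.7) in OB-like cells and no UMI in MALP-like cells. Ptgds, the lipocalin-type prostaglandin D synthase, was found in COP-like cells at 29.6 CPM (22.3–38.4) and 18.8 CPM (16.0–22.0) and had no UMI in the other 3 mesenchymal classes. Ptgfr, the receptor of prostaglandin F2 alpha, had 167 CPM (150–187) and 203 CPM (179–229) in MALP-like cells and 0 and 2 UMIs in COP-like cells. MALP-like cells thus had UMIs of receptor and transporter genes and none of Ptgs2. They also had UMIs of synthesis genes, with Ptgis at 150 and 215 CPM, 5 and 1 UMIs of Ptgs1 and 5 and 2 of Ptges. Anxa1, a phospholipase inhibitor, had 5603 and 4530 CPM in neutrophil-like cells.

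**Figure D5:**
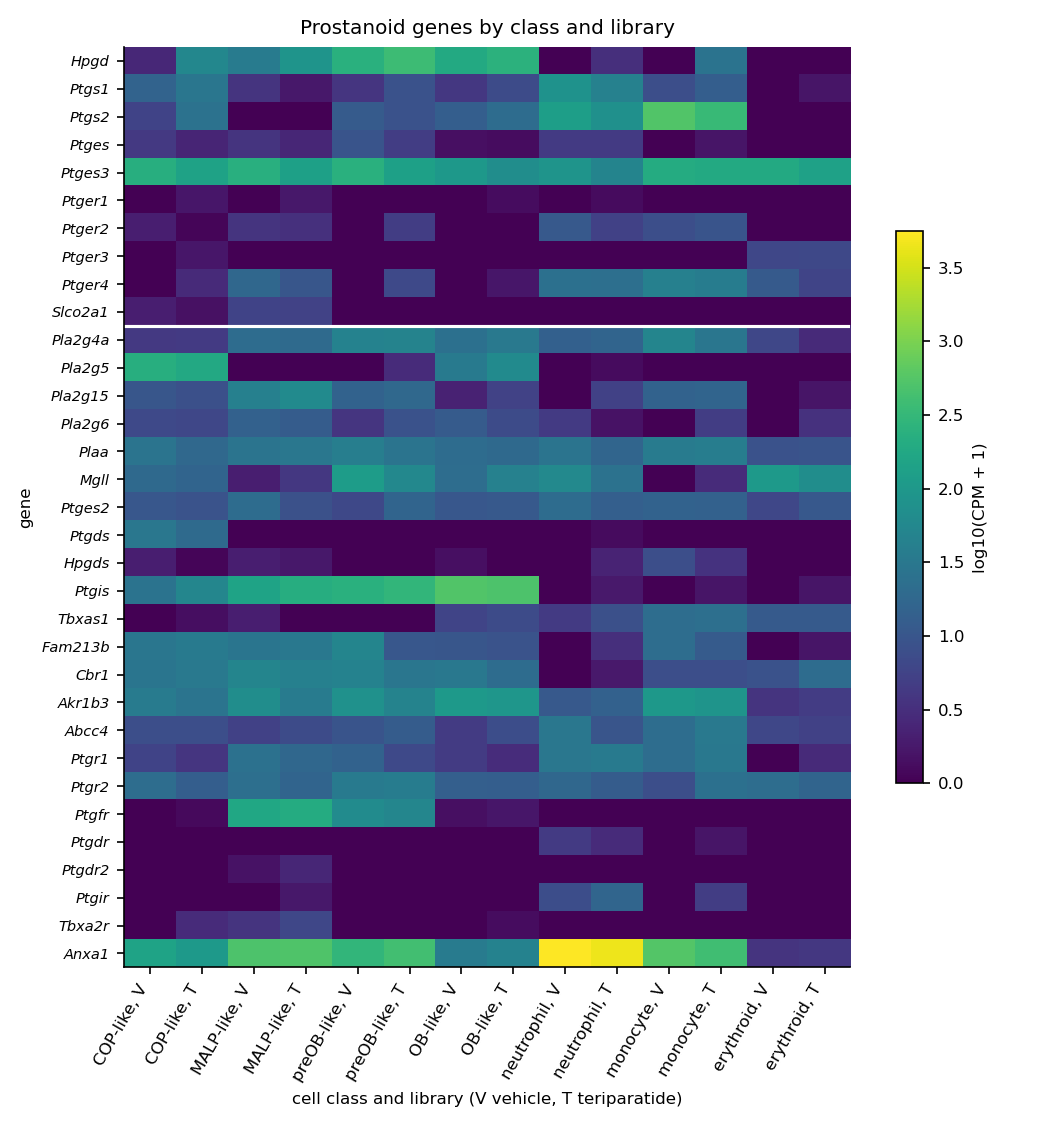
Level on a log10(CPM + 1) scale of the 10 genes (above the white line) and 23 other prostanoid genes (below it) by cell class and library, V for vehicle and T for teriparatide. Ptgis is brightest in OB-like, Ptgfr in MALP-like, Pla2g5 in COP-like and Anxa1 in neutrophil-like cells.

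The genes most like each member were ranked by Pearson's r of log2(CPM + 1) among 10882 genes. The ranking ran across 14 points, the combinations of class and library with at least 20 cells, which left out the 12 vehicle monocyte-like cells. Hpgd was most like Limk1 (r = 0.95), Ptgs1 like Cib2 (0.93), Ptgs2 like Gramd1b (0.90), Ptges3 like Cct4, a subunit of the chaperonin TRiC (0.98), and Ptger4 like Ep300 (0.94). The points share libraries and depth, so these values are a description.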

How the data were processed

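Single-cell RNA was measured in 1 library for vehicle and 1 for teriparatide. The deposited values are raw counts (UMIs per gene and barcode), which the authors made with Cell Ranger 2.1.0 on mm10 per the labels, although the matrix header names software version 3.1.0. Groups came from the labels. Cells with 200 to 6000 detected genes and at most 10% mitochondrial UMIs were kept, as in the study. No doublet caller was run. The upper gene limit and the gate margin were the only guards, and dropping the margin changed no value of the mesenchymal classes.

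Each cell was given the class with the highest mean of its scaled markers (log of 1 plus UMIs per 10000 UMIs, over the 99th percentile) when that score was at least 0.2, led the next by 0.05 and rested on at least 3 detected markers. Osteoblast, preosteoblast and MALP cells were then separated by Cxcl12 at 5000 CPM, Col1a1 at 50000 CPM, the sum of Postn, Aspn and Tnn at 100 CPM, and 2 UMIs of Mepe. Col10a1-high means at least 10000 CPM and cycling at least 3 UMIs of Top2a, Mki67 and Cenpf. These cut values were set after marker levels were seen. They left 89 vehicle cells (16.2%) and 146 teriparatide cells (12.0%) without a class, and 51 of 574 stromal cells lay near a cut. Sex was called from Xist and Y-linked UMIs.

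UMIs were summed per class and library. Levels have exact Poisson intervals, shares exact binomial (Clopper-Pearson) intervals and log2 ratios conditional binomial intervals, all at 95%. A count of 0 was bounded by a floor of 3 counts. For shares, cells were also thinned to 3400 UMIs, leaving out shallower cells. No test was run, since each group has 1 library. The interval and the call were tested on simulated data. Those counts were drawn from the Poisson model that the intervals assume, so UMIs that gather in few cells were not covered. All 10 members are named. Of the other pathway genes, those called by fold in a mesenchymal class or highest of their role could be named. Ptgir was chosen after its values were seen, and so were the examples of the early response list. The members and lists were chosen with earlier results of these data known. Alternatives changed the mitochondrial limit, the classes (Seurat 5.3.0 clusters in R 4.3.3, 20 principal components, resolution 0.6), the gate margin, the level, the scale, the sex of the cells, the depth and the minimum of 50 UMIs. Python 3.11.15, numpy 2.4.6, scipy 1.17.1 and pandas 2.3.3 were used. Positions are from GENCODE on GRCm38, the assembly of mm10.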

Additional observations from a re-analysis of the deposited data

Results flagged for a closer look

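In 5 pairings of classes a cyclooxygenase was higher in the teriparatide library in 1 class and lower in the other. Of all genes tested, 8.20% were called higher in COP-like and 9.10% in OB-like cells. In neutrophil-like cells 27.2% were called lower and in monocyte-like cells 15.4%, so nothing is read from the count. The log2 ratio of Ptgs1 was 0.97 in COP-like and -0.86 in neutrophil-like cells. The log2 ratio of Ptgs2 was 2.39 in COP-like cells and 0.74 in OB-like cells, against -0.77 in neutrophil-like and -0.66 in monocyte-like cells. Within cells of 1 called sex, neutrophil-like Ptgs2 was higher in the teriparatide library in both sexes. Without the Col10a1-high cells the COP-like Ptgs2 value was 0.79 (-0.44 to 2.31). The OB-like Ptgs2 value turned in male cells and with Seurat clusters. With 1 library per group the difference between the classes was not tested.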

How the results depend on the processing

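The log2 ratios of 9 called values kept their direction in 76 of the 81 settings where both libraries had UMIs of the gene. The setting without the gate margin is among these and returned the main value for each ratio, so it could not turn any. They turned with female cells alone for Ptgs1 in COP-like cells (-0.44) and Hpgd in MALP-like cells (-2.41), with thinned cells for Hpgd in preOB-like cells (-0.28), and with Seurat clusters (-0.25) and male cells alone (-0.26) for Ptgs2 in OB-like cells. Others moved beyond their interval. In COP-like cells, Ptgs2 was 0.99 with thinned cells and 0.79 without Col10a1-high cells, and Ptges3 was -0.43 on the median scale and -0.19 in female cells. Hpgd in MALP-like cells was 1.83 in male cells. Hpgd in preOB-like cells was 1.12 with up to 20% mitochondrial UMIs, 0.10 with the mean of per-cell CPM, 0.026 in male and 3.08 in female cells. Ptgs2 in OB-like cells was 2.17 in female cells and 1.497 with thinned cells. In COP-like cells no ratio could be had for Hpgd in female cells, with thinned cells or without Col10a1-high cells, nor for Ptgs2 in female cells.

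The count of called genes in COP-like cells (4) was 0 in female cells, 1 with thinned cells and 10 with a minimum of 1 UMI. In MALP-like cells (2) it was 1 in female cells, 0 with thinned cells and 6 with 1 UMI. In preOB-like cells (2) it was 1 with 20% mitochondrial UMIs, per-cell means, male or female cells, 0 with thinned cells and 6 with 1 UMI. In OB-like cells (1) it was 2 with 20% mitochondrial UMIs, thinned cells or a minimum of 20 UMIs, 0 with clusters or male cells and 4 with 1 UMI. Of all genes tested, the share called in COP-like cells was 28.5% in female cells, 29.9% with thinned cells and 46.6% with 1 UMI. In MALP-like cells these shares were 38.0%, 23.2% and 38.3%, in preOB-like cells 40.8%, 24.2% and 50.7%, and in OB-like cells 35.1%, 22.9% and 43.5%. The preOB-like share was 22.5% with 20% mitochondrial UMIs, 29.5% with per-cell means and 30.4% in male cells. The OB-like share was 18.9% with 20% mitochondrial UMIs, 25.3% with a minimum of 20 UMIs, 18.6% with clusters and 20.9% in male cells. Other causes were not tested. Leaving out Col10a1-high cells, leaving out the cell with the most UMIs, and a Col10a1 limit of 1000 CPM (Hpgd 3.63, Ptgs2 2.88) were chosen after seeing the data. Levels stayed within their interval in 94 of 131 settings, a count that includes the unchanged levels without the gate margin. Depth limited Ptges, Slco2a1 and Ptger1 to Ptger3. No paired analysis was possible because each group has 1 library.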
